A study of Mus musculus with 4 samples.

Results

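An older mouse brain was compared with a young one, both given water by gavage, in 10x Genomics Visium data, in which RNA is captured on an array of barcoded spots beneath a tissue section. A spot covers a small area and can hold several cells of different types. The members of the comparison are the spots with at least 500 unique molecular identifiers (UMIs, counts of captured RNA molecules) in the 2 vehicle libraries. They number 5419 of the 10942 such spots in the 4 libraries of the study, with 2716 in the young and 2703 in the aged library.

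Both libraries came from female C57BL/6 mice of an aged rodent colony. The young group was 3 to 4 months old and the aged group 18 to 20 months old. Both groups received water by intragastric gavage on alternate days, 10 times within 18 days. Brains were collected 18 hours after the final gavage. Left hemispheres were cut coronally at 10 µm between bregma -2.0 and -2.2 mm after the meninges were removed. The other libraries were an aged and a young one gavaged with ethanol at 3 g/kg. The labels give 1 library a group and do not say how many animals each holds. An age difference therefore had no replicate check and no test, and every interval here is a 95% interval that covers counting error only. Age also cannot be told apart from the animal, the section and the library. The labels describe the tissue as hippocampal, but the sections also held neocortex, thalamus, striatum, white matter and other regions.

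As background, ageing of the rodent brain is best known for changes in glia. Astrocytes and microglia of white matter raise complement, intermediate filament and interferon-induced transcripts, and the formation of new oligodendrocytes slows. Neuronal transcripts are known to change less, while vessels, stress hormone signalling and lipid handling also shift with age. A spot sums all of these cells, so fewer cells of a type and less RNA per cell cannot be told apart.

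Depth and tissue differed between the sections. The young library held 52807139 UMIs and the aged one 45995677. Spots held a median of 18861.5 UMIs in the young and 15660 in the aged section, and of 5154 and 4668 genes. Mitochondrially encoded RNA took 13.8% and 13.6% of UMIs. Xist, the RNA of the inactive X chromosome, had 1933 and 1744 UMIs, and the 4 Y-linked genes looked at had none apart from 3 UMIs of Kdm5d in the young library. The libraries shared 1930 barcodes, which in this assay name array positions.

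Spots were grouped into 28 clusters by their expression, and a cluster served as a tissue stratum where each vehicle library had at least 20 spots in it. That held for 20 strata with 5128 spots, 2589 young and 2539 aged. Of these strata 12 took a region name from their marker genes, and 8 are called by a pair of leading genes. CA1 pyramidal spots made up 2.76% and 2.70% of the young and aged section, dentate granule spots 1.10% and 1.22%, thalamus 7.33% and 7.70%, and white matter 9.32% and 9.99%, with overlapping intervals for each. Upper neocortex was 9.72% of the young and 6.36% of the aged section, and CA3 was 2.61% and 4.29%, with intervals that did not overlap. Middle neocortex (6.89% and 4.96%) and the Cyp26b1-Lypd1 stratum (6.22% and 4.37%) also had intervals that did not overlap. Hypothalamic spots were 19 in the young section and 102 in the aged one, so that cluster was not matched.

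**Figure D1:**
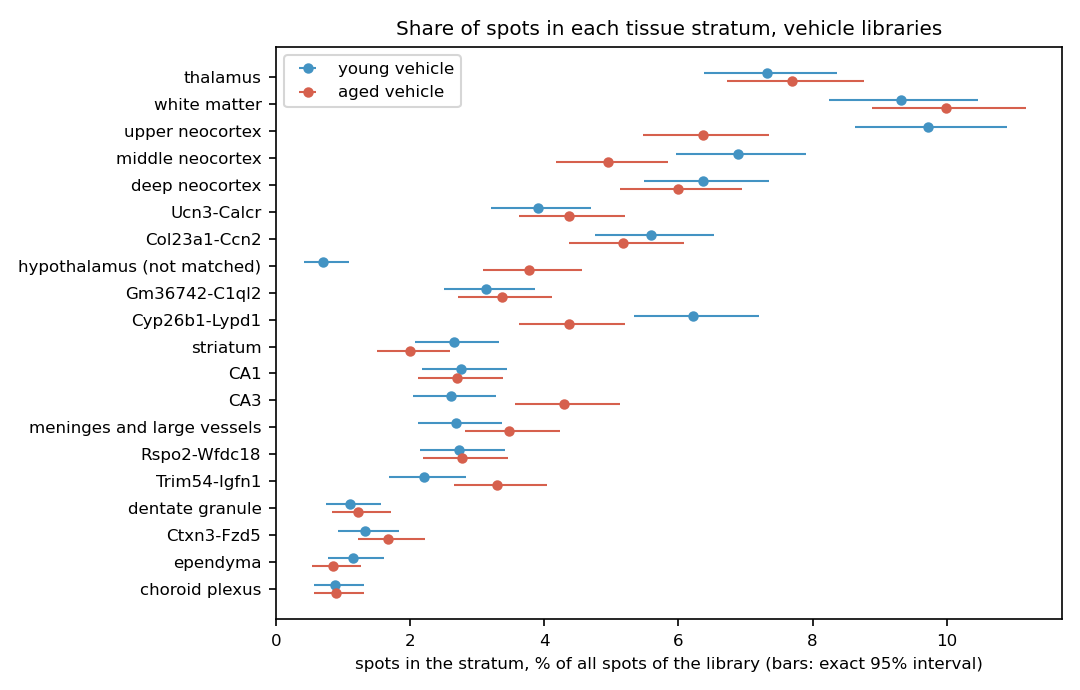
Share of each vehicle library's spots (x axis, percent) in 19 of the 20 matched strata and in the hypothalamic cluster, with exact 95% intervals as bars, young in blue and aged in red. Hypothalamus goes from 0.700% in the young to 3.77% in the aged section, while CA1, dentate granule, thalamus and white matter overlap.

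Within matched strata most genes had nearly the same level at both ages. For each gene the UMIs per 1000000 UMIs of the stratum (CPM) of the aged library were divided by those of the young one in each stratum, and the strata were combined into 1 Mantel-Haenszel ratio, given as a fold or on the log2 scale. A gene counts as measured with at least 100 UMIs in both libraries together, and as called higher or lower when its ratio reached 1.5-fold. Of 14057 measured genes, 85 were higher in the aged brain (0.605%) and 87 were lower (0.619%). Those shares are the background for each count of called list members below, and a short list would often hold no called gene. The median log2 ratio of all measured genes was 0.02, and 90.2% of genes lay within 1.2-fold. At 2-fold, 11 genes were higher and 10 lower.

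Within single strata the share of genes called higher ran from 0.58% to 2.82% and the share called lower from 0.622% to 6.14%. Most called genes had too few UMIs to give a direction in many strata, so how widely their differences were spread is mostly unknown. Of the 85 higher genes, 10 had at least 20 UMIs in 10 or more strata, and 5 of those pointed the same way in every such stratum. Of the 87 lower genes, 23 had that depth and 13 pointed the same way throughout. Symbols of predicted genes, unnamed transcripts or pseudogenes made up 14 of the genes called higher and 14 of those called lower. The share of such symbols among all measured genes is not given here, so these counts cannot be set against it.

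The highest ratios belonged to peptide hormones. Growth hormone Gh had 14 UMIs in the young and 161 in the aged matched spots, 12.1-fold (7.01 to 20.8). Pmch, the precursor of melanin-concentrating hormone of the lateral hypothalamus, had 221 and 2144 UMIs, 11-fold (9.58 to 12.7). Prolactin Prl had 50 and 191 UMIs, 3.92-fold (2.89 to 5.32). Otp, a homeobox factor of hypothalamic neurons, had 77 and 145 UMIs, 1.91-fold (1.45 to 2.52). These differences sat at particular places. Although the protocol removed the meninges, 73 young and 94 aged spots had markers that gave their cluster the name of meninges and large vessels, called the meninges stratum here. Pmch in it was 4 against 459 UMIs. Avp, which encodes vasopressin, had 10 and 581 UMIs in white matter. The unmatched hypothalamic cluster, larger in the aged section as given above, moved with Pmch, Otp and Avp, and its part in their ratios was not tested. In the ethanol libraries that cluster held 207 young and 156 aged spots, and Prl was called higher in the aged one there too. What tissue gave the Gh and Prl counts was not tested.

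Among other genes called higher, with 1 direction in at least 80% of their strata, the highest ratios were those of Atf3, Xlr3b, Cytl1, Inmt, Apold1 and Epha2. Apold1, an early response gene of endothelial cells, was the most widely measured of them. It had 347 UMIs in the young and 654 in the aged spots, 2.11-fold (1.85 to 2.41), and was higher in 16 of 16 strata. Atf3, a stress-induced transcription factor, had 68 and 154 UMIs, 2.48-fold (1.85 to 3.33). Epha2, a receptor for ephrins, had 63 and 110 UMIs, 2.0-fold (1.46 to 2.76). Xlr3b had 47 and 97 UMIs, Cytl1 32 and 82, and Inmt 36 and 72, each with 1 stratum deep enough to give a direction. Xlr3b belongs to a family of near-identical X-linked genes, so its reads may be split among copies.

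The lowest ratio was that of 9330198N18Rik, a long noncoding RNA at chr2:30629559-30656198 in GRCm38.p6. It had 231 UMIs in the young vehicle spots and 10 in the aged ones, a ratio of 0.0488 (0.0253 to 0.0942), and was lower in 6 of 6 strata. Over the 17 strata shared by all libraries its level was 4.51 ± 0.31 CPM (counting SE) in the young vehicle library, 0.20 ± 0.07 in the aged vehicle, 0.23 ± 0.07 in the young ethanol and 0.16 ± 0.07 in the aged ethanol library. The young vehicle library was thus the high one, and the other libraries had similar low levels.

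Slc7a5 had the lowest ratio of the 23 lower genes with at least 20 UMIs in 10 or more strata. It encodes LAT1, the light chain of a large neutral amino acid transporter of the blood-brain barrier and of neurons. It had 935 UMIs in the young and 332 in the aged spots, a ratio of 0.415 (0.365 to 0.471), and was lower in 15 of 15 strata. The log2 ratio was -1.79 in deep, -1.58 in middle and -1.55 in upper neocortex. Over all libraries the aged vehicle one was the low one, with 7.54 ± 0.43 CPM against 18.2 ± 0.63 in the young vehicle, 16.4 ± 0.62 in the young ethanol and 17 ± 0.66 in the aged ethanol library.

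Other low ratios belonged to regulators, a lipid droplet gene and histamine synthesis. Zbtb16, a zinc finger factor induced by glucocorticoids, had 123 and 32 UMIs, a ratio of 0.314 (0.213 to 0.465). Mid1, a ubiquitin ligase, had 125 and 49 UMIs, a ratio of 0.473 (0.339 to 0.659). Plin4, a coat protein of lipid droplets, had 449 and 185 UMIs, a ratio of 0.488 (0.409 to 0.581), and was lower in 10 of 11 strata. Hdc, the enzyme that makes histamine in hypothalamic neurons and mast cells, had 266 and 117 UMIs. Its meninges stratum held 90 in the young and 10 in the aged section. Ccdc36 had 127 and 45 UMIs, Gm19938 79 and 32, and Gm9008 108 and 45.

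**Figure D2:**
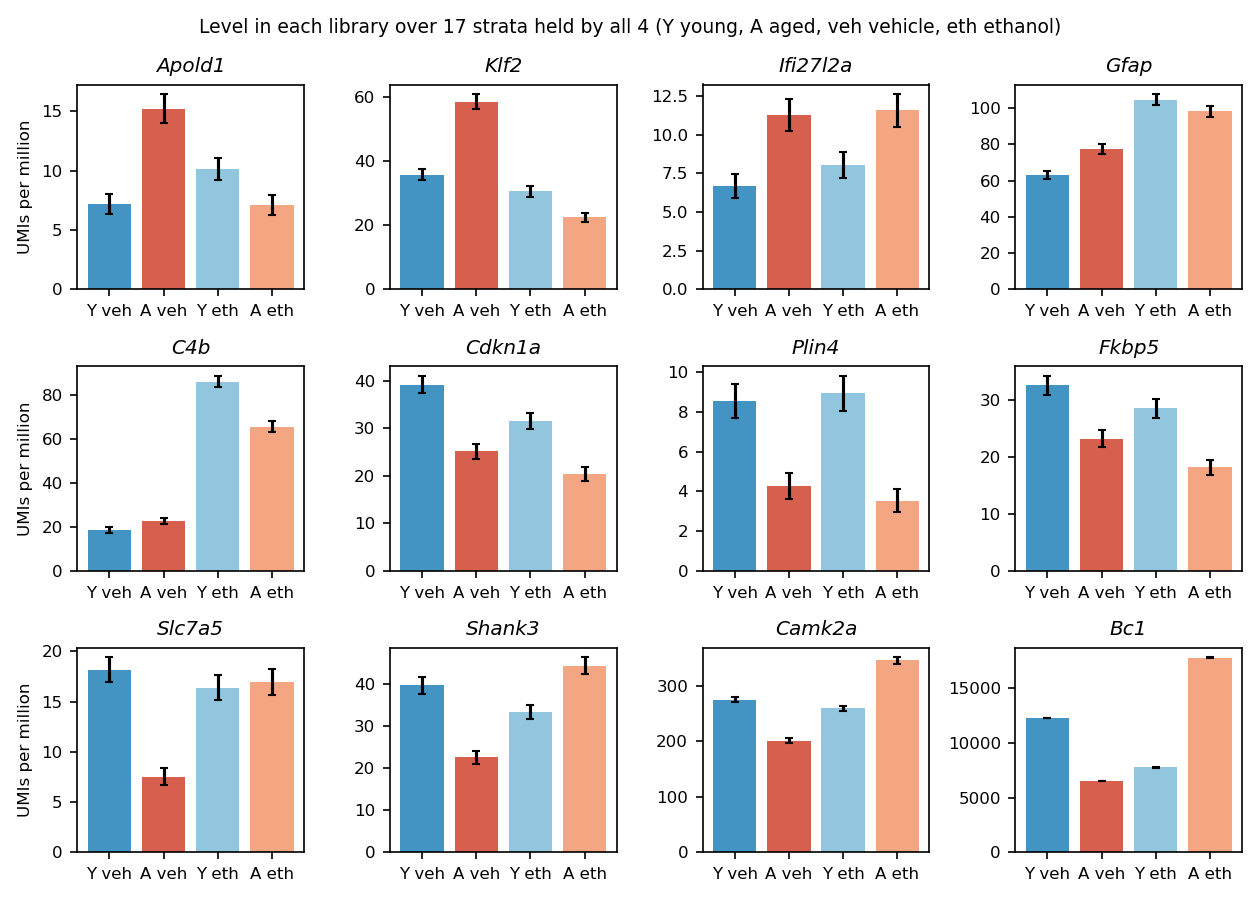
Level of 12 genes in the 4 libraries (bars, CPM on a linear axis from 0) over the 17 strata common to all; error lines are 95% counting intervals, and each group is 1 library. Slc7a5 is low in the aged vehicle library alone, Plin4 and Cdkn1a are low in both aged libraries, and Bc1 is lowest in the aged vehicle and highest in the aged ethanol library.

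Gfap and C4b had slightly higher levels in the aged vehicle brain, short of a call, and the lists they belong to had no called member. Gfap, the astrocyte intermediate filament, had 3176 and 3452 UMIs and a ratio of 1.2 (1.15 to 1.26), and was higher in 12 of 19 strata. C4b, a complement component made by glia, had 913 and 1027 UMIs and a ratio of 1.23 (1.13 to 1.35). Neither reached 1.5-fold, though C4b did with spots thinned to equal depth (log2 0.61). C4b shares much of its sequence with C4a, and both added together gave 1.26 (1.15 to 1.37). Serpina3n, a secreted protease inhibitor of reactive astrocytes, had a log2 ratio of 0.19, and Vim, another intermediate filament, -0.03. Of the reactive astrocyte list 10 of 13 genes were measured and 0 were called, 5 lying above 0 and 5 below. The list's median was 0.06 beside 0.02 for all genes, and that of the homeostatic astrocyte list was -0.01 over 15 genes.

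In white matter Gfap, C4b and Ifi27l2a were each called higher in the aged section. There 66 of 6185 measured genes were higher in the aged section (1.07%) and 130 were lower (2.1%). Gfap was 391 CPM in the young and 596 CPM in the aged white matter, a log2 ratio of 0.61 (0.49 to 0.73). C4b was 96.6 CPM in the young and 152.6 CPM in the aged, a log2 ratio of 0.66 (0.41 to 0.91). Ifi27l2a, an interferon-induced gene, was 16.4 and 76.8 CPM, a log2 ratio of 2.23 (1.73 to 2.76). Klk6, a protease of oligodendrocytes, had a log2 ratio of 0.61. Serpina3n had 0.22 with 63 and 55 UMIs. The call for Gfap is close to the 1.5-fold line, and it ended when spots were thinned to equal depth (0.52) or weighted equally (0.54). Outside white matter, Gfap was also called higher in upper neocortex and lower in the Cyp26b1-Lypd1 and choroid plexus strata.

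Depth and neighbouring tissue moved with these white matter values. Median UMIs per white matter spot were 9463 in the young and 6697.5 in the aged section. The 4 measured haemoglobin genes were higher in aged white matter, with Hbb-bs at 1.26, whereas Ttr, the main transcript of choroid plexus, was -1.94. Their part in the result was not tested. With each spot thinned to 5000 UMIs, which left out 55 young and 75 aged spots, C4b was found in 30.8% of 198 young spots (24.5 to 37.7) and 46.2% of 195 aged ones (39.0 to 53.4). Without thinning the shares were 47.4% and 49.6%. Gfap was found in 70.7% and 77.4% of thinned spots, and Ifi27l2a in 6.57% and 13.3%, with overlapping intervals. Before thinning, Ifi27l2a had its 43 young UMIs in 32 spots and its 151 aged UMIs in 50.

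Over all matched strata Ifi27l2a was 2.12-fold higher (1.87 to 2.42), with 331 UMIs in the young and 639 in the aged spots. It was higher in 10 of 14 strata, and the excess was uneven. Choroid plexus held 22 and 127 UMIs, a log2 ratio of 2.80 (2.14 to 3.53), and ependyma 5 and 42, too few for a call. Striatum had 6 and 30. Ttr, given as a sign of choroid plexus RNA, was 1.42 in ependyma, 2.91 in striatum and -1.94 in white matter, and its part in the result was not tested. The meninges stratum, with 77 and 96 UMIs, had -0.12 (-0.57 to 0.33).

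Other interferon-induced genes had unlike values. Type I interferon acts through a factor that binds repeats of GAAA spaced by a pair of bases in the promoters of its target genes. Isg15, a ubiquitin-like protein and a classical target, was lower, with 102 UMIs in the young and 41 in the aged spots, a ratio of 0.422 (0.295 to 0.603). Of those, the meninges stratum held 36 and 5. Ifit3, which restrains viral RNA, had 248 and 207 UMIs and a ratio of 0.916 (0.763 to 1.10). Of the interferon list 16 of 19 genes were measured. Ifi27l2a was called higher and Isg15 lower, beside 0.605% and 0.619% of all genes. The list had 12 genes above 0 and 4 below, and a median of 0.08.

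The sequences of 3 target promoters are given because genes that share this motif had unlike ratios. The motif, GAAA followed by any 2 bases and GAAA again, was searched on both strands, overlapping matches included, and is in capitals. Each sequence is the 250 bases before the gene's start, 5′ to 3′ on the gene's strand, from RefSeq in build GRCm38.p6. Isg15 is on the minus strand at chr4:156200819-156201068 and has 3 overlapping matches. Ifit3 is on the plus strand at chr19:34583279-34583528 and has 2. B2m, the light chain of MHC class I, is on the plus strand at chr2:122147437-122147686 and has 1.
Isg15: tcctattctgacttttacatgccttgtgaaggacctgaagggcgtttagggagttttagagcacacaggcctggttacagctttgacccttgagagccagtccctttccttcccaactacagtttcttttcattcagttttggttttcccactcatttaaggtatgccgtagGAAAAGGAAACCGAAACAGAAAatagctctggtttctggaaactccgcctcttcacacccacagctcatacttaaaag
Ifit3: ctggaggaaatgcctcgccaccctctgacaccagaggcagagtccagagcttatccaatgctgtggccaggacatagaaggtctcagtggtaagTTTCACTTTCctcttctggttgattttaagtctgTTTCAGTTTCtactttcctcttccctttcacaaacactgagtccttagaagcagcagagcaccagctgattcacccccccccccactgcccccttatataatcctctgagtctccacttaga
B2m: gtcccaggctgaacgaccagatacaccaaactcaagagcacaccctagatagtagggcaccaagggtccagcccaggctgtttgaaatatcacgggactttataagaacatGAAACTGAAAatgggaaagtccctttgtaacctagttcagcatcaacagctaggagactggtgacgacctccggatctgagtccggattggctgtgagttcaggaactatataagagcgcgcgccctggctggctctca

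In windows from 250 bases before to 50 after the start, the motif was found for 9 of the 13 interferon list genes with a window (69.2%) and for 2 of 11 MHC class I genes (18.2%). Of all 27025 genes with a window 3.99% had it. A match describes the letters of the window and is neither a bound site nor a cause. The aged over young log2 ratios of the 3 printed genes were -1.25 for Isg15, -0.13 for Ifit3 and 0.01 for B2m.

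Antigen presentation differed little. B2m had 7009 and 6059 UMIs and a ratio of 1.0 (0.969 to 1.04). The class I heavy chains H2-D1 and H2-K1 had log2 ratios of -0.04 and 0.14, and H2-Q7, a less abundant one, was called higher with 43 and 75 UMIs, 1.76-fold (1.2 to 2.6). Class I genes share long stretches of sequence, so their reads may be split among copies. Of 10 measured class I list genes 1 was called higher, beside 0.605% of all genes, and the median was 0.03. Cd74, the invariant chain of class II, had 243 and 322 UMIs and a ratio of 1.27 (1.08 to 1.51), with 37 and 70 UMIs in choroid plexus. Of 6 measured class II genes 0 were called, 5 lay above 0, and the median was 0.17.

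Microglial lists had medians close to that of all genes, 0.02. With 0.605% of all genes called higher and 0.619% lower, short lists such as these would often hold no called gene. Of the homeostatic microglia list all 11 genes were measured and 0 were called, with a median of 0.06. Among them Cx3cr1, the fractalkine receptor, had 0.13 and P2ry12, a purine receptor, 0.17. Of the disease-associated microglia list 13 genes were measured and 0 called, with a median of 0.07. Its lipid receptor Trem2 had 0.07 and lysozyme Lyz2 0.20. Spp1, the secreted osteopontin, had 767 and 573 UMIs and a log2 ratio of -0.48. It was lower in 6 and higher in 7 of 13 strata, at -0.76 in meninges. Cst7, an activation marker, had 14 and 13 UMIs and was not measured. C1qa and C1qb, subunits of the complement starter C1q, had -0.07 and 0.02. Of 9 measured complement genes 0 were called and the median was 0.08.

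Of 7 measured cytokine and Toll-like receptor genes 0 were called, with a median of 0.04, and of 4 border macrophage genes 0, with a median of 0.13. The immunoglobulin light chain Igkc had 18 and 11 UMIs, and the heavy chain Ighm had a log2 ratio of -0.19. The lipid carriers Apoe, Apod and Clu had 0.02, 0.11 and 0.06. Cholesterol synthesis genes had a median of 0.07 with 15 of 19 above 0 and 0 called, and lysosomal genes a median of 0.00. The alarmin Il33, found in oligodendrocytes and astrocytes, had 0.02.

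Mature myelin transcripts were level, and a marker of cells turning into oligodendrocytes was lower. Gpr17, a receptor that marks committed oligodendrocyte precursors, had 1198 UMIs in the young and 784 in the aged spots, a ratio of 0.777 (0.709 to 0.850), lower in 12 of 17 strata. With thinned spots its log2 ratio went from -0.36 to -0.60, past 1.5-fold. It was called lower in white matter, with 252 and 119 UMIs and a log2 ratio of -0.66 (-0.99 to -0.34). It was also called in thalamus, with 91 and 34 UMIs and -1.54 (-2.15 to -0.96). Thinned to 5000 UMIs, Gpr17 was found in 24.7% of young (18.9 to 31.4) and 14.9% of aged white matter spots (10.2 to 20.7). Of other genes of that stage Enpp6 had 0.05 and Bcas1 -0.14. Pdgfra and Cspg4, receptors of earlier precursors, had -0.00 and 0.30, and the ligand Bmp4 had -0.53. Of 12 precursor and differentiation genes 0 were called, 8 lay below 0, and the median was -0.12.

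Myelin basic protein Mbp had 163780 and 128593 UMIs and a ratio of 0.952 (0.945 to 0.959). In white matter its log2 ratio was 0.03. The myelin genes Mal and Opalin had -0.05 and 0.15, and the 16 myelin genes had a median of -0.05 with 0 called. Some other strata had less myelin RNA in the aged section. In choroid plexus 10 of 12 measured myelin genes were called lower with a median of -0.82, beside 6.14% of all genes measured there. In the Ucn3-Calcr stratum 10 of 13 were called lower with a median of -0.81, beside 1.79% of all genes there. In deep neocortex the median was -0.47. Over those strata the share of myelinated tissue under the spots was not measured.

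**Figure D3:**
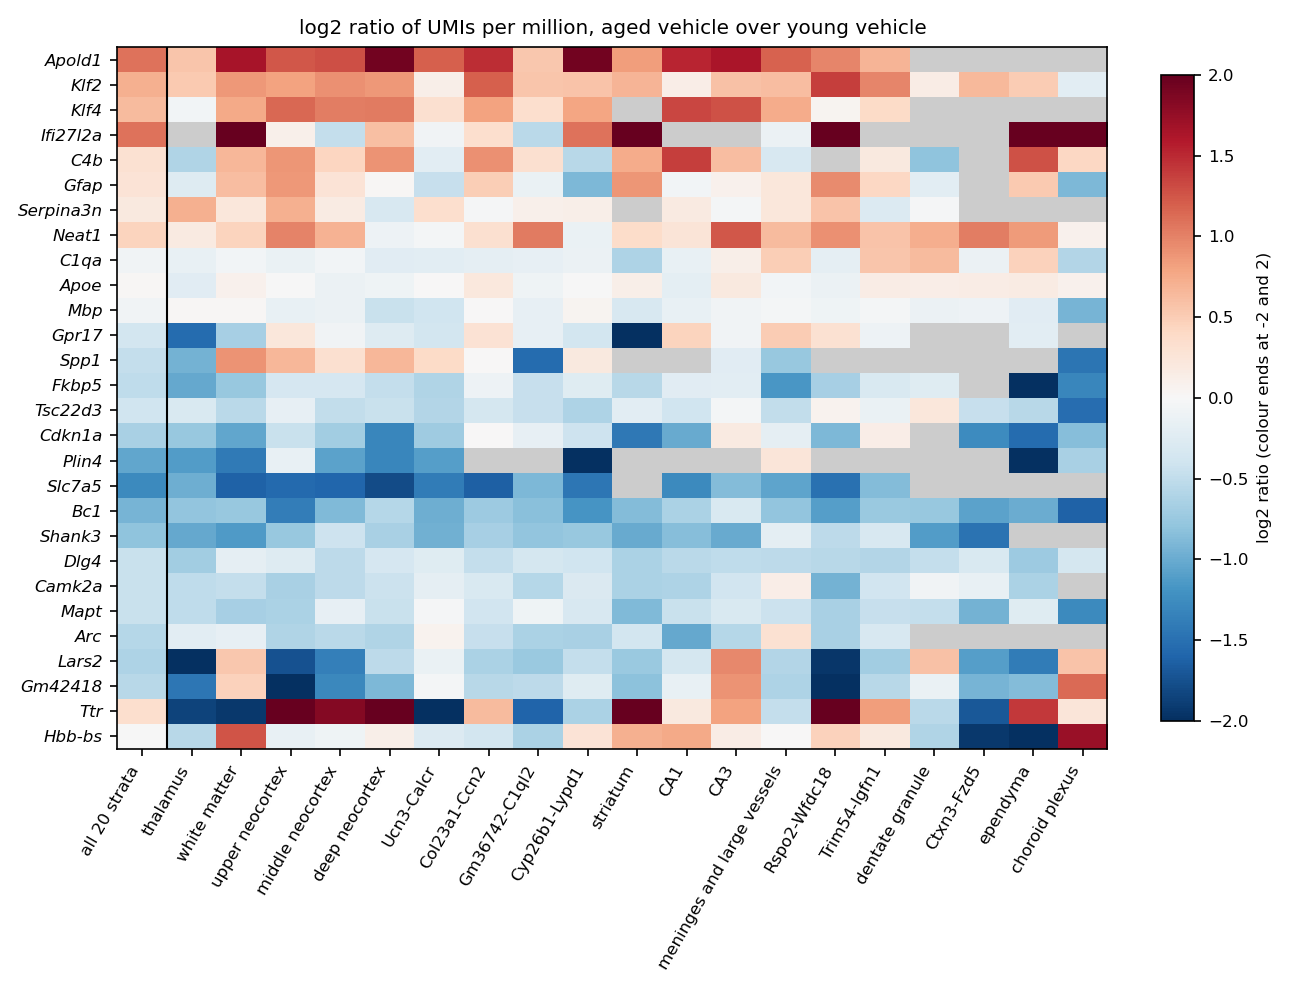
Log2 ratio, aged over young vehicle (colour, ending at -2 and 2), of 28 genes over all 20 matched strata and in 19 of them; grey cells had under 20 UMIs in both libraries together. Slc7a5 and Bc1 are below 0 and Apold1 is above 0 in every stratum shown for them, while Ifi27l2a and Gfap vary in sign.

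The most abundant difference was in a neuronal RNA. Bc1, a short noncoding RNA carried into dendrites, where it represses translation, had 621952 UMIs in the young and 286490 in the aged spots. Its ratio was 0.523 (0.521 to 0.526). It was lower in 20 of 20 strata, called in 18, from a log2 ratio of -1.62 in choroid plexus to -0.30 in CA3. Choroid plexus holds no neuronal cell bodies, yet its spots had 2511 and 676 UMIs of Bc1. Over all libraries Bc1 stood at 12271 CPM in the young vehicle, 6532 in the aged vehicle, 7752 in the young ethanol and 17760 in the aged ethanol library.

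Of 7 RNAs that track ribosomal or nuclear carry-over, Lars2 and AY036118 were called lower, beside 0.619% of all genes. Of the 7, 3 lay above 0 and 4 below, and the median was -0.41. Gm42418 and AY036118, which overlap ribosomal RNA genes, had log2 ratios of -0.55 and -0.69, and Lars2, which encodes the mitochondrial leucyl-tRNA synthetase, -0.62. Together they took 0.296% of UMIs in the young vehicle, 0.212% in the aged vehicle, 0.280% in the young ethanol and 0.564% in the aged ethanol library. By stratum Gm42418 did not always go with Bc1. It was -2.05 in upper neocortex, where Bc1 was -1.38, but 0.89 in CA3 and 1.13 in choroid plexus. Malat1, a nuclear RNA, was -0.41 and Neat1, another, 0.44. Their part in the result was not tested.

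Of 17 postsynaptic genes Shank3 was the 1 called, beside 0.619% of all genes called lower. Shank3, a scaffold of excitatory synapses, had 1774 and 906 UMIs, a ratio of 0.571 (0.527 to 0.619), and was lower in 18 of 18 strata. Dlg4, the scaffold PSD-95, had 6598 and 4121 UMIs, a ratio of 0.733 (0.705 to 0.762), lower in 20 of 20. The kinase Camk2a had 0.735 (0.715 to 0.756), lower in 17 of 19. From the amyloid and tau list, in which 0 of 15 genes were called, Mapt, which encodes the axonal protein tau, had 8055 and 5059 UMIs and a ratio of 0.738 (0.712 to 0.764), lower in 20 of 20 strata.

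The synaptic lists as a whole stayed near the other genes. Of the postsynaptic genes 12 lay below 0, with a median of -0.04 beside 0.02 for all genes. The scaffolds Homer1 and Shank1 had -0.12 and -0.13, and Dlgap3 and Camk2b each 0.01. The 18 presynaptic genes had a median of -0.01 and 0 called. Ionotropic glutamate receptors had a median of -0.01 and GABA-A receptors 0.02, with 0 called in either. Cacng7, an AMPA receptor auxiliary subunit outside these lists, had 1097 and 494 UMIs and a ratio of 0.518 (0.464 to 0.577). Gpr162, an orphan receptor of brain, had 0.584 (0.553 to 0.616) and Wdr89 0.569 (0.543 to 0.598), lower in 19 of 19 and 20 of 20 strata.

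Activity-induced genes had no common direction. Arc, which acts at dendrites, had 4059 and 2086 UMIs and a ratio of 0.676 (0.641 to 0.713), Egr1 had 1.21 (1.17 to 1.25), and Fos had a log2 ratio of 0.11. Of 15 immediate early genes 0 were called, 11 lay above 0, and the median was 0.10. The neuropeptide precursor Vgf was 0.816 (0.792 to 0.841), lower in 19 of 20 strata, and the neurotrophin Bdnf -0.06 on the log2 scale.

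Interneuron and newborn neuron markers were mostly level. Crh, the corticotropin-releasing peptide, had 393 and 206 UMIs and a ratio of 0.664 (0.561 to 0.787). It was the 1 called member among 13 interneuron genes, beside 0.619% of all genes called lower. The median of the list was -0.06, and the call of Crh ended with strata from coarser or finer clusters. Sst, Npy and Pvalb had -0.07, -0.06 and -0.14, and Gad1, which makes GABA, had 0.05. Dcx, Sox11 and Igfbpl1, markers of newborn neurons, had 0.01, 0.02 and -0.10. The amyloid precursor App had -0.14. No member but Mapt in the amyloid and tau list of 15 lay beyond that size.

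Klf2, Klf4 and Apold1 had higher levels in the aged vehicle brain in most strata. Klf2, a flow-responsive endothelial transcription factor, had 1742 and 2564 UMIs and a ratio of 1.63 (1.53 to 1.73). It was higher in 19 of 20 strata and called in 10 of the 14 in which it was measured. Klf4, a related factor, had 493 and 697 UMIs and 1.56 (1.39 to 1.75), higher in 14 of 15. Of the endothelial list the VEGF receptor Kdr had 200 and 321 UMIs and 1.77 (1.48 to 2.11), higher in 10 of 12 strata. The adhesion molecule Icam1 had 67 and 104 UMIs and 1.73 (1.26 to 2.36), higher in 2 of 3. Robo4 and Ccn1, chosen after their values were seen, had 1.55 (1.29 to 1.85) and 1.5 (1.29 to 1.74).

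Defining markers of endothelium did not share the size of those ratios. Cldn5, the tight junction claudin, had 1.10 (1.03 to 1.18) and Pecam1 1.06 (0.936 to 1.2). Of 16 endothelial and barrier genes 2 were called higher, Kdr and Icam1, beside 0.605% of all genes. Of the 16, 11 lay above 0, and the median was 0.09. Summed over the list, the level was 468 CPM in the young and 482 CPM in the aged section. In white matter thinned to 5000 UMIs, Klf2 was found in 19.2% of young (14 to 25.4) and 34.9% of aged spots (28.2 to 42.0), and in 34.8% and 36.7% without thinning.

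Mural cell genes mostly lay above 0, and some were called higher in the meninges stratum. Of 10 pericyte and smooth muscle genes 9 lay above 0, with a median of 0.26. Among them 1 was called higher, beside 0.605% of all genes. The called gene was the filament desmin, Des, with 53 and 96 UMIs and 1.82-fold (1.29 to 2.57). Acta2, smooth muscle actin, had 770 and 1203 UMIs and 1.46 (1.33 to 1.6), and passed 1.5-fold with finer clusters, equal weights, thinned spots or no strata (log2 0.62 to 0.87). In the meninges stratum Acta2 was 272 against 698 UMIs, a log2 ratio of 0.92 (0.71 to 1.13). The contractile genes Myl9, Myh11 and Tagln had 1.28, 1.10 and 0.64 there. Acta2 and Tagln are among the marker genes used to form and name this stratum, so their values there are not independent of it. That stratum had 73 young and 94 aged spots, and the summed mural list was 160 CPM in the young and 207 CPM in the aged section. The sum is made of the same mural genes, so it is no separate measure of how much large vessel each section cut. The part of vessel content in these ratios was not tested. Collagen and matrix genes had a median of -0.08 with 0 of 14 called.

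Of 10 genes of the glucocorticoid response list, 1 was called lower and 0 higher, beside 0.619% and 0.605% of all genes. The glucocorticoid receptor induces a known set of genes in brain. Of the 10, which include the receptors Nr3c1 and Nr3c2, 8 lay below 0 with a median of -0.22 beside 0.02 for all genes. The called gene was Zbtb16, given above. Fkbp5, a chaperone that restrains the receptor, had 1623 and 1000 UMIs and a ratio of 0.703 (0.649 to 0.761), lower in 19 of 19 strata. Tsc22d3, also called GILZ, had 0.763 (0.734 to 0.792), lower in 18 of 20. Pdk4 and Map3k6 had log2 ratios of -0.51 and -0.31, and Sgk1 had -0.03. The receptors Nr3c1 and Nr3c2 had 0.12 and -0.01. In white matter Fkbp5 had 120 and 53 UMIs and -0.76 (-1.25 to -0.28), and in meninges 101 and 61 and -1.17 (-1.65 to -0.70).

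Plin4 and Cdkn1a, both stress-responsive, were low with them. Cdkn1a, the cell cycle inhibitor p21 and a marker used for senescence, had 1979 UMIs in the young and 1089 in the aged spots, a ratio of 0.639 (0.592 to 0.689), lower in 16 of 19 strata. It was called in 7 of 13 strata, with log2 ratios of -1.3 (-1.77 to -0.86) in deep neocortex and -1.03 (-1.40 to -0.68) in white matter. Thinned to 5000 UMIs, Cdkn1a was found in 39.4% of young (32.5 to 46.6) and 20.0% of aged white matter spots (14.6 to 26.3). In deep neocortex the shares were 23.7% (17.6 to 30.7) and 5.81% (2.69 to 10.7). Plin4 in white matter had 146 and 41 UMIs, and was found in 21.2% (15.7 to 27.6) and 9.23% (5.56 to 14.2) of thinned spots. The other measured genes of the senescence list were not called, and its median was -0.10 over 7 genes. Stress-induced genes did not share a direction, and Atf3 and Maff were called higher. The metallothionein Mt2 had 0.746 (0.729 to 0.763), lower in 19 of 20 strata, while Mt1 had a log2 ratio of -0.13. Mt3 ran from 0.00 to 0.57 over its 20 strata. Of 20 antioxidant and metallothionein genes 0 were called, 13 lay above 0, and the median was 0.01. Of 21 heat shock and unfolded protein genes 0 were called, 14 lay below 0, and the median was -0.01.

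Energy and protein turnover genes were level. Nuclear oxidative phosphorylation genes had a median of 0.02, proteasome genes -0.02 and ribosomal protein genes 0.01, and Rpl35 was the 1 called gene among them. The 13 mitochondrially encoded genes had a median of -0.09 with 12 below 0. The chaperone Hspa5 had 0.885 (0.861 to 0.910), lower in 19 of 20 strata. Clock genes had a median of 0.09 over 15, with Per1 at 0.24 and Dbp at 0.22.

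**Figure D4:**
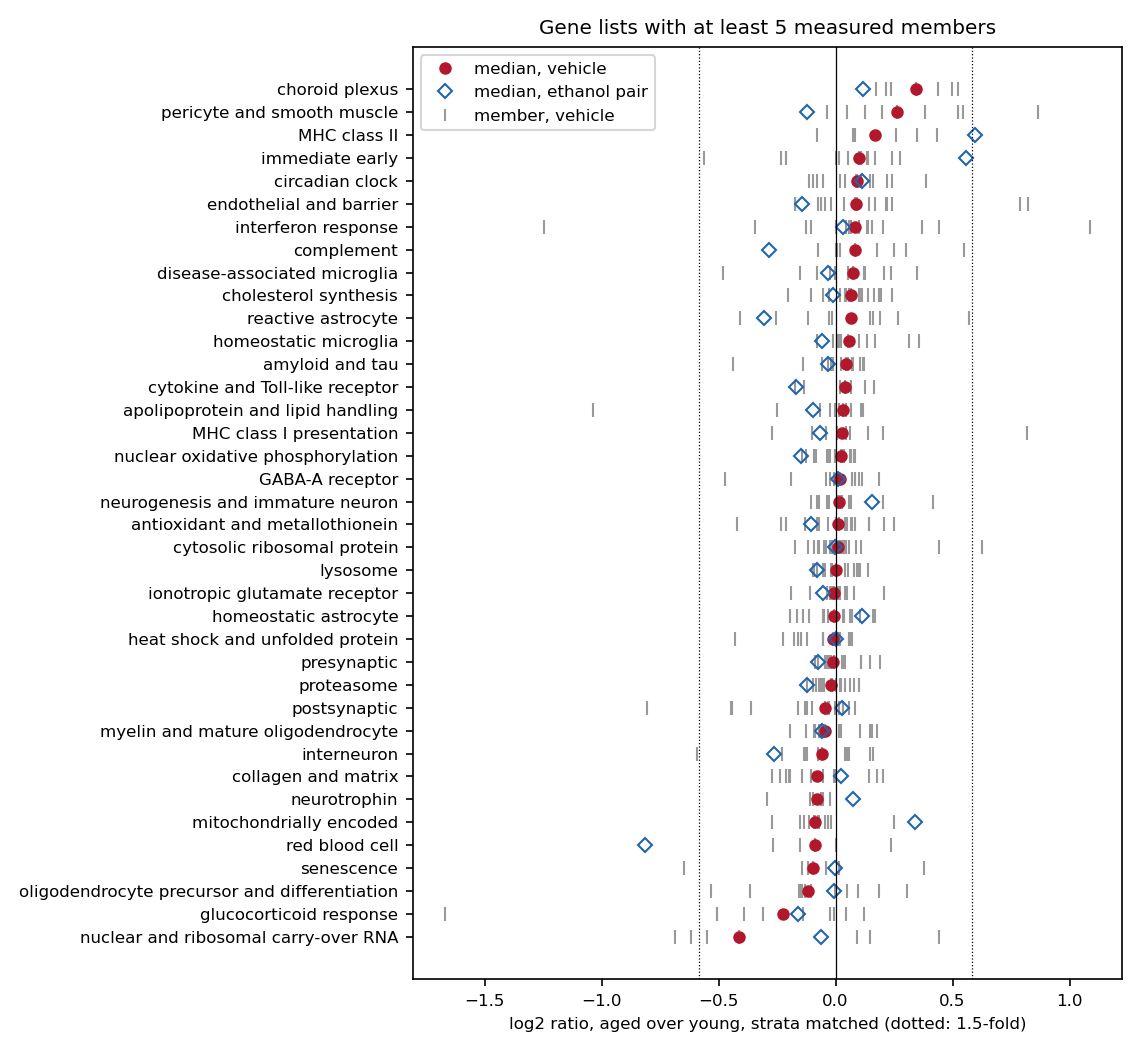
Median log2 ratio, aged over young in matched strata, of each gene list with at least 5 measured members (filled red for vehicle, open blue for the ethanol pair); grey ticks are members under vehicle and dotted lines mark 1.5-fold. Choroid plexus (0.34) and mural genes (0.26) lie highest under vehicle, and glucocorticoid (-0.22) and carry-over RNA (-0.41) lowest.

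Some calls lay in genes that share sequence with a copy. Eno1, the glycolytic enolase, was called higher at 0.66 and its copy Eno1b lower at -0.62, while both added together gave a ratio of 1.10 (1.06 to 1.13). Rpl10 had 0.44 and Rpl10-ps3 -0.66, with 0.21 for the sum. Ftl1, the ferritin light chain, had 0.26 and Ftl1-ps1 -0.67, with 0.22 for the sum. Reads of such pairs can be split in unlike ways, so the single calls are uncertain. Rpl35, the called ribosomal protein gene, had 10721 and 14050 UMIs and a ratio of 1.54 (1.5 to 1.58), higher in 20 of 20 strata.

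Within the hippocampal formation the called genes differed by field. In CA1 106 of 5819 genes were higher (1.82%) and 66 lower (1.13%). Vip, an interneuron peptide, had 33 and 144 UMIs there, a log2 ratio of 2.29 (1.74 to 2.88). Arc had 274 and 120 UMIs, a log2 ratio of -1.03 (-1.35 to -0.71), and the immediate early genes Egr4 and Junb were also called lower, with a list median of -0.59 over 6 genes. Haemoglobin genes were higher in CA1, with Hbb-bt at 1.13, and 3 of the 4 turned below 0 with coarser clusters.

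In CA3 95 of 6111 genes were higher (1.55%) and 38 lower (0.622%). Col25a1, a membrane collagen of neurons, was highest at 1.09, and Shank3 was among the lowest at -1.01 (-1.52 to -0.52). The carry-over genes were higher here, with Lars2 at 0.97, and turned to -0.20 with coarser clusters. In the dentate granule layer 64 of 3313 genes were higher (1.93%) and 53 lower (1.6%). Cnr1, the cannabinoid receptor, had 79 and 23 UMIs, a log2 ratio of -1.31 (-2.05 to -0.63), and Ptgds, a prostaglandin synthase of meninges and oligodendrocytes, -1.06. Adam22, a synaptic adhesion protein, had 0.97 and Xist 1.11.

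In neocortex Slc7a5 and Cacng7 were among the lowest in the upper and middle layers. Upper neocortex had 186 of 9246 genes higher (2.01%) and 77 lower (0.833%), and its all-gene median was 0.10. Klf4 and the immediate early gene Egr2 were highest there after Ttr, at 1.16 and 1.12, and Cacng7 had -1.51. Middle neocortex had 88 genes higher (1.1%) and 93 lower (1.16%), with Gnb4, a G protein subunit, at 1.0, Klf2 at 0.91 and Cacng7 at -1.53. Deep neocortex had 67 higher (0.826%) and 121 lower (1.49%). Its lowest genes included Slc7a5, Cdkn1a, S1pr5 at -1.10 and Myrf at -1.08. S1pr5 is a lipid receptor and Myrf the master regulator of myelin genes, both of oligodendrocytes. Ttr stood at 2.85 in upper and 5.4 in deep neocortex, from 262 UMIs in the young to 7908 in the aged deep layer.

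In strata known by leading genes the shares of genes called higher and lower were 1.24% and 1.79% in Ucn3-Calcr, 0.873% and 1.21% in Col23a1-Ccn2, and 1.44% and 1.12% in Gm36742-C1ql2. They were 0.58% and 1.54% in Cyp26b1-Lypd1, 1.35% and 1.5% in Rspo2-Wfdc18, 0.735% and 0.984% in Trim54-Igfn1, and 1.25% and 1.69% in Ctxn3-Fzd5.

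In thalamus 57 of 6551 genes were higher (0.87%) and 66 lower (1.01%). Opn3, an opsin, had 0.89 and Adrb1, an adrenergic receptor, 0.82, while Lars2 had -2.18, Gpr17 -1.54 and Cacng7 -1.47. In striatum 80 of 4358 genes were higher (1.84%) and 90 lower (2.07%). The 5 measured choroid plexus genes were all called higher in striatal spots, with Folr1 at 17 and 105 UMIs and Ttr at 4321 and 24963. Npy and Sst were lowest at -1.40 and -1.39. Over all matched strata the 7 choroid plexus genes lay above 0 with a median of 0.34. Summed over all kept spots, matched or not, their level was 5163 CPM in the young and 6183 CPM in the aged section. Ttr by stratum went from -3.27 to 5.71, and its spread into non-choroid spots moved with these regional values.

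At the surfaces of the brain, the meninges stratum had 127 of 4509 genes higher (2.82%) and 97 lower (2.15%). Choroid plexus had 38 of 2117 higher (1.79%) and 130 lower (6.14%), and ependyma 28 of 1178 higher (2.38%) and 27 lower (2.29%). In choroid plexus Ifi27l2a and haemoglobin genes were highest, Hba-a1 at 2.67, with Cd74 at 1.19 (0.60 to 1.81). Tsc22d3 had 94 and 27 UMIs there, a log2 ratio of -1.53 (-2.20 to -0.90), while Gfap and Mbp, markers of adjoining brain, had -0.90 and -0.92. In ependyma Ttr was 1.42 and Neat1 0.85, and the 4 haemoglobin genes were lower, with Hbb-bs at -2.06.

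The ethanol pair repeats the comparison of ages in libraries that are not shared, under another gavage and in other sections. Over its 17 matched strata 107 of 13881 genes were higher in the aged library (0.771%) and 214 were lower (1.54%), with an all-gene median of -0.06. Of the 85 genes higher under vehicle 63 were measured there. Of these 2 were called higher as well, Prl and Tal1, which is 3.17% of the vehicle calls and 2.04% of the ethanol calls measured in both. By sign 20 of the 63 were above 0 and 43 below, and 10 were called lower there. Tal1, a transcription factor of blood and some midbrain neurons, is named after its values were seen.

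Of the 87 genes lower under vehicle 70 were measured under ethanol, and 14 were called lower there too, 20% of the vehicle and 7.22% of the ethanol calls measured in both. By sign 37 of the 70 were below 0 and 33 above, and 8 were called higher there. The 14 include Cdkn1a, at -0.65 in each pair, and Plin4, at -1.04 under vehicle and -1.29 under ethanol. Over all libraries Plin4 stood at 8.55 ± 0.44 and 8.93 ± 0.45 CPM in the young and 4.27 ± 0.34 and 3.54 ± 0.29 CPM in the aged libraries, vehicle first. Cdkn1a stood at 39.2 ± 0.94 and 31.5 ± 0.83 CPM in the young and 25.2 ± 0.80 and 20.4 ± 0.72 CPM in the aged ones. The aged libraries did not overlap the young ones for either gene. Both genes are given here because they were called lower in both pairs, so the order within each pair follows from that choice. In white matter the log2 ratios under ethanol were -1.12 for Plin4 and -1.62 for Cdkn1a.

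The other shared low genes were chosen by that overlap, after their values were seen. The enzymes Xdh and Ada, of purine breakdown, had -0.68 and -0.66 under vehicle and -0.85 and -1.40 under ethanol. The peptide precursor Trh had -0.95 and -1.10, and the receptor Gpr6 of striatal neurons -0.79 and -0.92. The rest were G530011O06Rik, Gm47283, Itgad, Pla2g3, Rin3, Serpinb8, Tekt4 and Tmem52. Fkbp5 and Tsc22d3 had -0.61 and -0.38 under ethanol beside -0.51 and -0.39 under vehicle, and the glucocorticoid list median was -0.16 with 9 of 10 below 0.

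For glia and vessels the ethanol pair gave other values. C4b was -0.38 and Gfap -0.06 there, beside 0.30 and 0.27 under vehicle, and in white matter -0.53 and 0.04. The young libraries differed from each other, with C4b at 18.7 ± 0.66 CPM in the young vehicle, 22.7 ± 0.75 in the aged vehicle, 86.2 ± 1.36 in the young ethanol and 65.7 ± 1.24 in the aged ethanol library. Ifi27l2a was 0.55 under ethanol and 0.63 in white matter. Apold1 was -0.52, Klf2 -0.43 and Acta2 -0.39, and the mural list median -0.12. Klf2 levels were 35.9 ± 0.91 CPM in the young vehicle, 58.6 ± 1.21 in the aged vehicle, 30.7 ± 0.83 in the young ethanol and 22.5 ± 0.75 in the aged ethanol library. Bc1 was 1.2, Shank3 0.41, Camk2a 0.42 and Mapt 0.24, with Gm42418 at 1.05 and Lars2 at 1.12. Class II genes had a median of 0.60 with 3 of 6 called higher, and immediate early genes 0.56 with 7 of 15 called higher. Of all genes 0.771% were called higher under ethanol.

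**Figure D5:**
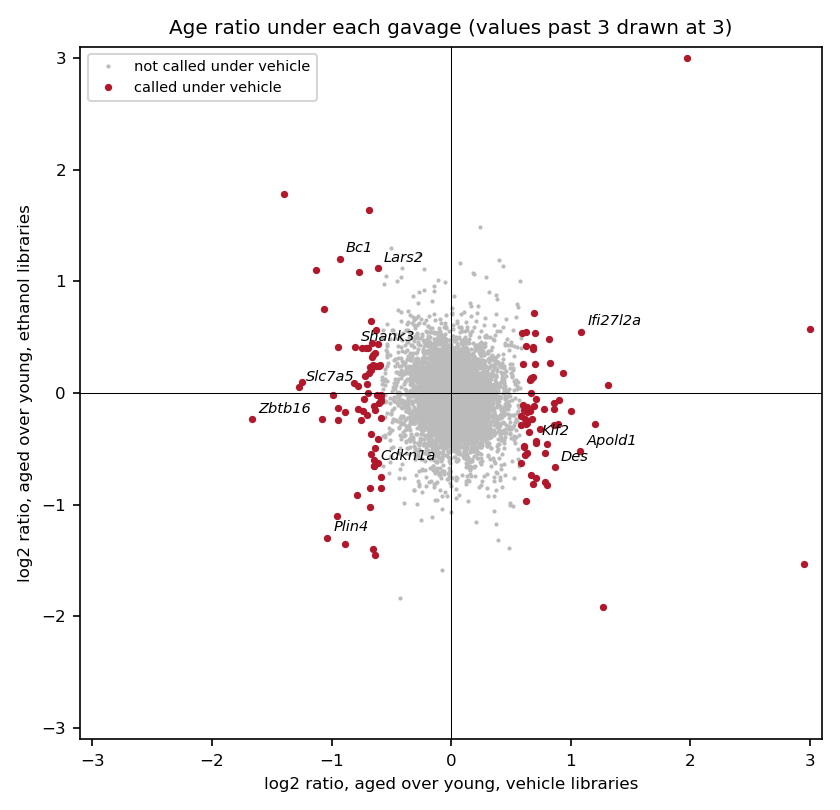
Log2 ratio, aged over young, under vehicle (x axis) and under ethanol (y axis) for the 13722 genes measured in both pairs; the 133 called under vehicle are red, and values past 3 are drawn at 3. Plin4 and Cdkn1a lie low on both axes, while Bc1 and Lars2 lie below 0 under vehicle and above 0 under ethanol.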

How the data were processed

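The authors deposited raw UMI counts per gene and spot, 4 libraries in 1 matrix of 32285 genes and 11064 spots, with the library letter in each barcode. The matrix header names spaceranger 1.3.1, per the file headers, and Space Ranger 2.0.0 with mm10 is named per the submitters' processing notes. The annotation release and any depth equalisation are not given in the sources used here. Spots under 500 UMIs were left out, 27 young and 81 aged.

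Spots of all libraries were scaled to 10000 and log-transformed. Variable genes, 1500 of them, came from alternate entries of the feature list, with genes of the lists left out. Detected region marker genes were added, which gave 1558 features. Some of these markers, such as Mbp, Ttr and Acta2, are reported above and so helped to form the strata. Each gene was scaled within each library. The data were reduced to 30 principal components and clustered (Leiden, resolution 1, 15 neighbours, scanpy 1.11.5, igraph 0.11.9). Clusters with at least 20 spots in both vehicle libraries were the strata of the vehicle pair. Of these, the 17 that also had at least 20 spots in both ethanol libraries were the strata of the ethanol pair. Clusters not matched under vehicle, such as the hypothalamic one, were therefore left out of the ethanol pair too. Matched ratios are Mantel-Haenszel rate ratios with counting intervals. Regional ratios have exact conditional binomial intervals, with 0 replaced by 3 UMIs, and shares have exact Clopper-Pearson intervals. The ratios, their intervals and the calls were tested on simulated counts within the fixed strata. Clustering, thinning and differences between sections were not simulated. With 1 library a group there is no test. A model of age over the 4 libraries with gavage as a second term was not fitted, because it asks about age over both gavages. PCR and cell overlap add error that the intervals leave out.

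Genes were named by rule: the 10 highest and 10 lowest matched calls with 1 direction in at least 80% of strata of 20 or more UMIs, the 5 highest and lowest per region, up to 4 called and 2 abundant members per list, and a set of glial, immune and section genes. The members, lists and named genes were chosen with earlier results of these data known. Alternatives were other scalings, clusterings, depths and thresholds, and 1 without predicted genes, added after the data were seen. Some genes and 1 stratum are not reported here. Promoters came from RefSeq tables in GRCm38.p6.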

Additional observations from a re-analysis of the deposited data

Results flagged for a closer look

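For 18 genes the aged over young ratio was called in opposite directions in the vehicle and the ethanol pair. With 1 library a group the difference between the pairs was not tested. Each is given as its log2 ratio under vehicle and then under ethanol.

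Among carry-over and abundant noncoding RNAs, Bc1 had -0.93 and 1.2, Lars2 -0.62 and 1.12, and AY036118 -0.69 and 1.64. Gm20594, a predicted gene, had -0.77 and 1.09. The vascular and smooth muscle genes Icam1 and Des had 0.79 and -0.79, and 0.87 and -0.66. The stress-induced factor Maff had 0.80 and -0.82. Vasopressin Avp had 2.95 and -1.53, beside the unlike share of hypothalamic spots.

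The chemokine Ccl28 had -1.07 and 0.75, the immunoglobulin gene Ighg2c 0.59 and -0.63, the purine enzyme gene Pnp2 0.62 and -0.97, and the zinc finger gene Zfp146 -0.67 and 0.65. Ccdc36 had -1.40 and 1.78, Xlr3b 1.27 and -1.92, Gm19938 -1.13 and 1.10, Gm49066 0.67 and -0.73, Gm3667 0.71 and -0.76, and 4933432I09Rik 0.68 and -0.82.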

How the results depend on the processing

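With 1 library a group, depth and section limit every value, and no paired fit could be made. No paired analysis was possible because each group has 1 library and shares no replicate number that names an animal. The matched counts of 85 higher and 87 lower genes stayed within 1.5 times under other scalings, clusterings, spot depths, equal weights and thinning. They became 11 and 10 at 2-fold, 199 and 166 with a minimum of 50 UMIs, and 17 and 30 with 300 UMIs. With no strata 143 genes were higher, and called-higher list members went from 6 to 15. Finer clusters gave 12 such members.

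Summed over regions, 1002 higher and 988 lower calls became 68 and 103 at 2-fold, 3123 and 2834 at 50 UMIs, 137 and 188 at 300 UMIs, and 420 and 342 with thinned spots. With spots weighted equally the higher calls were 1632. Under ethanol, 107 higher and 214 lower became 26 and 28 at 2-fold, 181 and 354 at 50 UMIs, and 40 and 72 at 300 UMIs, and thinning gave 111 lower. Calls shared by both pairs, 2 higher and 14 lower, became 1 and 1 at 2-fold, 9 and 25 at 50 UMIs, and 0 and 4 at 300 UMIs. Thinning gave 6 shared lower genes. Shared higher genes were 5 without mitochondrial genes, with median-of-ratios or TMM-like factors and with equal weights, and 7 with coarser or finer clusters. Of the gene and region pairs whose shares of spots did not overlap, 5 became 14 without thinning and 1 at 2000 UMIs.

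Regional log2 ratios turned sign with coarser clusters for Hbb-bt (-0.16), Hbb-bs (-0.10) and Hba-a2 (-0.32) in CA1 and for Lars2 (-0.20) and Ttr (-0.55) in CA3. Finer clusters turned Gm42418 in meninges (0.25), and thinning turned Vgf in striatum (0.013). The cause was not tested. Of the other regional values, each under each setting, 2376 kept their call and 180 lost it.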
